A study of Sus scrofa domesticus with 8 samples.

Results

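Transcript levels of 66 heat shock proteins and co-chaperones were followed over 144 h of culture in granulosa cells of the pig ovary. These somatic cells surround the oocyte in the follicle. A gene was included when its platform symbol began with HSPA, HSPB, HSPD, HSPE or HSPH, with DNAJ, with BAG1 to BAG6, with PDIA, with CCT2 to CCT8, with HSF and a digit, or with FKBP and a digit. The symbol rule used no measured value. It found 71 features for 66 of the 10905 genes named on the array, whose deposited table held 27558 features. Where a gene had more than 1 feature, the feature with the highest mean over the 8 arrays stood for it. By the known site of their products, 37 members were placed in the cytosol, 17 in the endoplasmic reticulum (ER) and 6 in mitochondria, and 6 were nuclear or not placed. Of 107 protein-coding pig symbols that fit the rule in RefSeq (Sscrofa11.1), the other 41, among them HSPA9, HSPA2, CCT5, CCT8, HSF2, FKBP5 and DNAJC3, were not analysed here.

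The granulosa cells came from slaughtered crossbred Landrace gilts, 43 in all, whose median age was 170 days and median weight 98 kg. They were grown in DMEM with 2% fetal bovine serum and antibiotics at 37 °C, and RNA was taken at 0 h, before culture, and at 48 h, 96 h and 144 h. There were 2 Affymetrix arrays per time, and time was the one factor in the labels, with no genotype, drug or untreated parallel culture. Values are log2 intensities, so a difference of 1 is a 2-fold change. Each difference is the mean of the 2 arrays of one time minus the mean of the 2 arrays of another. Its standard error (SE) and its p, adjusted over all 27558 features, came from limma's moderated test, and a call is an adjusted p below 0.05. The labels leave unsaid whether both arrays at a time derive from different animals or cultures, so every p measures array-to-array spread alone, and that spread may be technical. A call is named as lost where the fit without the array named gave an adjusted p of 0.05 or more, with the highest p over the 8 such fits. Such a fit leaves 1 array at that time and fewer degrees of freedom, so a loss alone does not show that the array was unusual. The comparisons with 0 h share the 0 h arrays, and their values stand side by side for that reason.

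Chaperones bind proteins that are not yet folded or have lost their fold. HSP70 proteins (HSPA) work in cycles of ATP hydrolysis that J-domain proteins (DNAJ) start and that nucleotide exchange factors, such as HSP110 (HSPH1, HSPA4, HSPA4L) and BAG proteins, end. Small heat shock proteins (HSPB) hold unfolded chains without ATP, the chaperonins (CCT in the cytosol, HSPD1 with HSPE1 in mitochondria) fold proteins inside a closed chamber, and PDIA and FKBP enzymes speed disulfide exchange and proline turns. The transcription factor HSF1 turns on the inducible cytosolic genes after heat or other protein damage, and the unfolded protein response does so for the ER set. In granulosa cells the ER folds secreted hormones such as the inhibin and activin subunits, and cytosolic chaperones with HSP90 hold steroid receptors ready for their ligands.

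The arrays were alike in scale, with medians between 4.52 and 4.63, and the 2 arrays of a time correlated over all features at 0.985 at 144 h to 0.997 at 96 h. Among the members, the largest gap between the 2 arrays of a time was 0.79, for HSPB6 at 144 h. Levels of cell type markers also moved over these hours. The summed linear intensity of 9 measured granulosa markers of 15 listed fell from 8455 to 8824 at 0 h to 1078 to 1457 at 144 h, while that of 9 of 10 theca and stroma markers went from 540 to 547 to 14079 to 15988. Of these 9, the 7 stroma and smooth muscle genes were called higher at every time, while of the theca genes INSL3 was called lower at every time (-1.60 at 144 h) and CYP17A1 was not called. At 144 h, 7 of the 9 granulosa markers were called lower, WT1 was called higher (0.83) and ESR2 was not called. All 9 were above both arrays' lower quartile at 0 h, and AMH no longer was at later times. Of 9 measured oocyte markers of 12, 8 were above it at 0 h and 3 at 144 h, with a summed intensity of 1307 to 1336 and then 351 to 453. Most of this sum was KIT, which read 9.94 and 9.97 at 0 h and 7.92 and 8.45 at 144 h. Summed leukocyte markers, 9 of 12, went from 316 to 345 down to 227 to 254, with 2 called higher (LYZ and CD14) and 3 lower (PTPRC, TYROBP and FCER1G) at 144 h. Summed endothelial markers, 5 of 10, stayed between 69.8 and 98.7, with PECAM1 called higher and KDR called lower than at 0 h at every later time. The part these shifts have in the results below was not tested. In such bulk RNA, fewer cells of a type and less RNA per cell cannot be told apart.

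Over the 4 times, 46 of the 66 members (69.7%) were called by limma's F test, against 47.5% of all features and 51.9% of the named genes. The members were bright, with a median level of 7.47 against 5.06 for the named genes. A brightness filter, met by genes that exceed the 40th percentile of 2 or more arrays, left 7537 named genes. Of these 69.5% were called. Of the members, 61 passed the filter, and DNAJB8, DNAJB13, DNAJC5B, FKBP6 and HSF5 did not. Of the 61, 73.8% were called, so the members' share was near that of genes of some brightness. The calls were 24 of 37 in the cytosol, 12 of 17 in the ER, 6 of 6 in mitochondria and 4 of 6 elsewhere. The range of the 4 means ran from 0.36 to 3.52 (median 1.09) among the 46 called members and from 0.18 to 0.57 (median 0.31) among the 20 others.

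**Figure D1:**
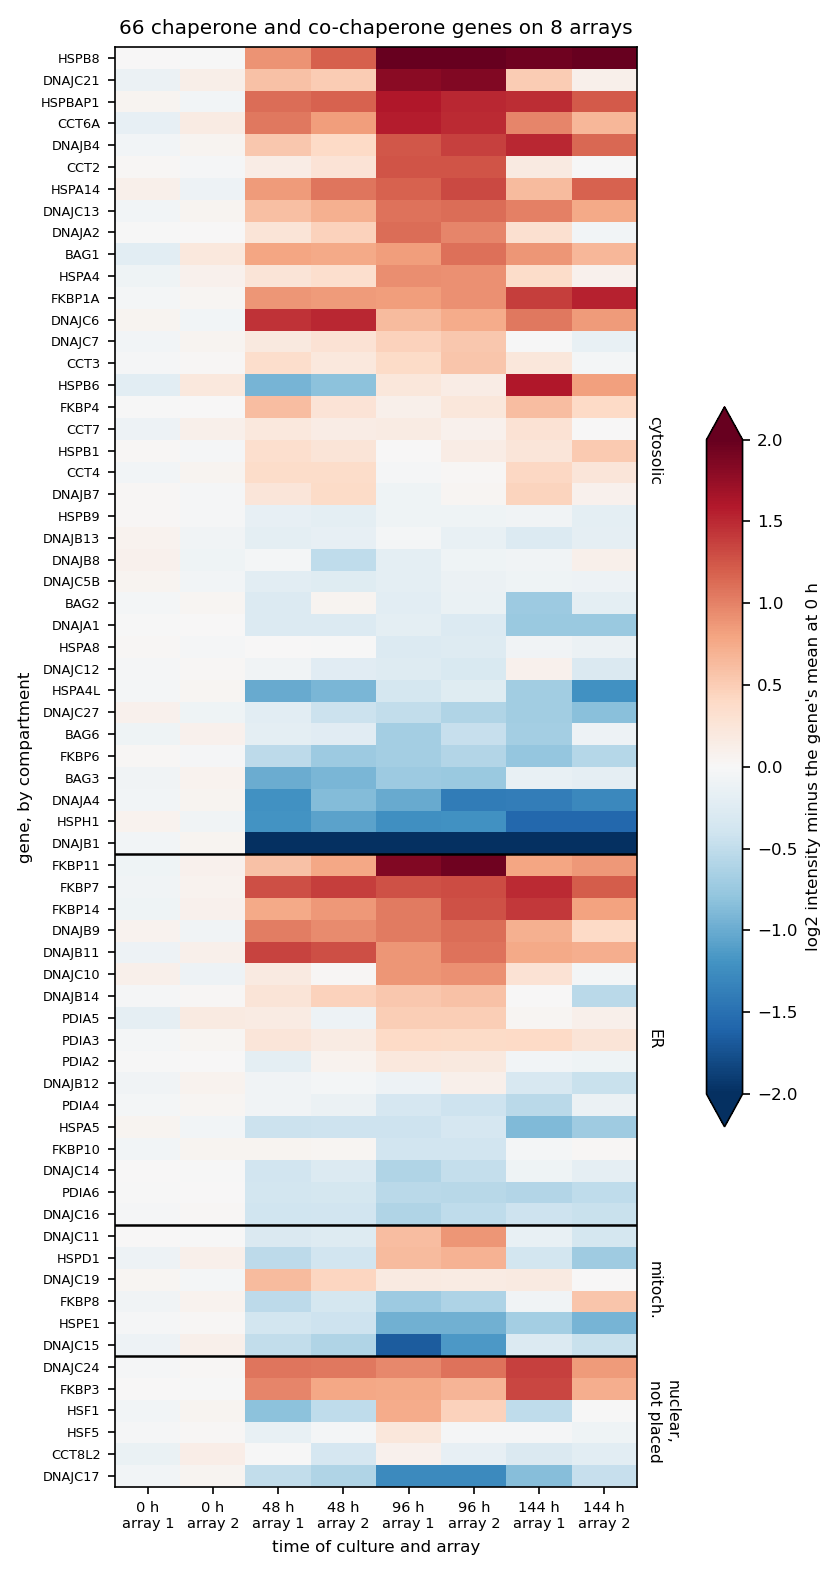
Log2 intensity of each of the 66 genes on each of the 8 arrays, minus the gene's own mean at 0 h, with genes in rows by compartment and ordered by the 96 h difference. Red is above 0 h and blue below, and colours stop at 2 and -2, which DNAJB1, at -3.20 at 96 h, and HSPB8, whose 0 h arrays lie at the floor, both exceed.

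At 48 h, 19 members were higher and 13 lower than at 0 h, 48.5% in all. Of the named genes 34.0% were called (18.1% higher and 15.9% lower), and of those past the brightness filter 45.8%. At 96 h, 29 members were higher and 16 lower, 68.2% in all, against 44.8% of the named genes (21.5% higher and 23.3% lower) and 59.9% of those past the filter. At 144 h, 18 were higher and 14 lower, 48.5% in all, against 36.8% of the named genes (19.2% higher and 17.6% lower) and 50.1% of those past the filter. The 18 include FKBP4, whose features disagree in direction. Of the 61 members past the filter, 50.8% were called at 48 h and 50.8% at 144 h. At these 2 times the share was thus close to that of genes of some brightness. At 96 h, 47.5% of these 61 members were called higher, against 29.4% of the genes past the filter. Those called lower were 24.6%, against 30.5%. Among the 46 members that the F test called, the highest mean fell at 96 h for 19 (41.3%), against 27.5% of the 5656 named genes so called. These 5656 genes were not limited to those past the brightness filter. The median difference of the members from 0 h was small throughout, 0.14 at 96 h against -0.01 for the named genes, because rises and falls lay side by side. For every called member the 2 arrays of one time lay wholly above or below the 2 of the other. Arrays also failed to overlap with 0 h for 69.1% of all named genes at 48 h, 76.8% at 96 h and 64.0% at 144 h, so the separation of arrays says little by itself. Leaving out any 1 array of 0 h, 48 h or 96 h cut the number of lower calls at 48 h, 13 in the main fit, by over 1.5 times. The 19 higher calls became 12 without 0 h array 2 or without 48 h array 1.

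**Figure D2:**
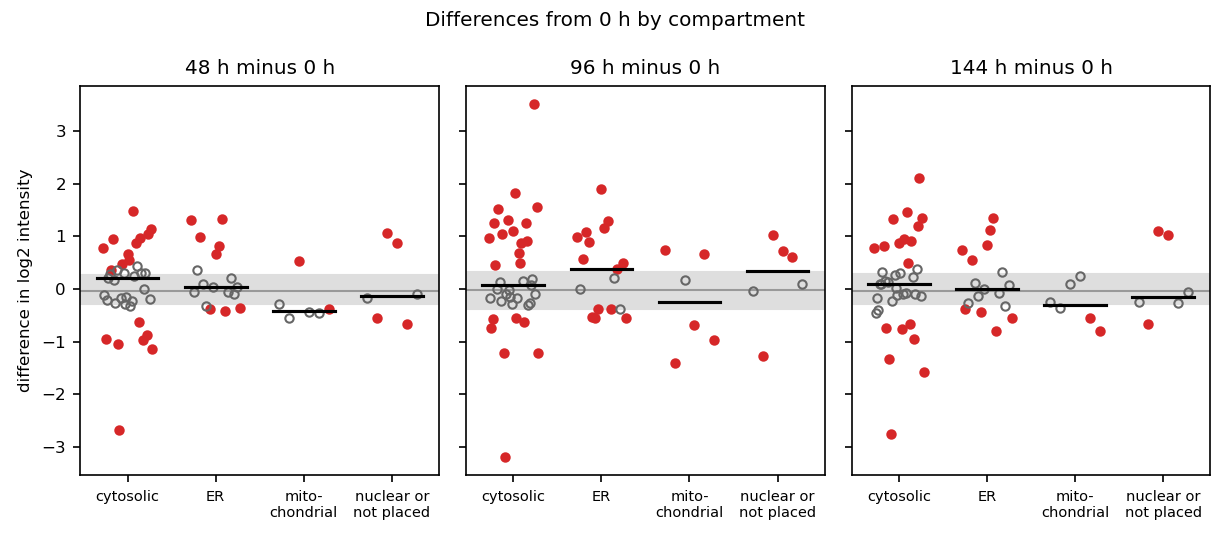
Log2 difference from 0 h of each member at 48 h, 96 h and 144 h, by compartment, with filled points for members called at an adjusted p below 0.05 and open points for the others. The grey band and line give the middle 50% and the median of all named genes, and called points lie on both sides of it in each panel, with 29 higher and 16 lower at 96 h.

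DNAJB1, HSPH1 and DNAJA4, cytosolic partners of HSP70, were highest in the fresh cells. DNAJB1 is the main stress-inducible J-protein partner of HSP70. It read 10.46 and 10.55 at 0 h, 7.82 and 7.83 at 48 h, 7.24 and 7.38 at 96 h and 7.71 and 7.80 at 144 h. Both 0 h arrays stood more than 2 units above every cultured array. It fell by 2.68 (SE 0.11, adjusted p = 2.31e-06) at 48 h, by 3.20 (SE 0.11, adjusted p = 4.99e-07) at 96 h and by 2.75 (SE 0.11, adjusted p = 1.14e-06) at 144 h, which is 6.42-fold, 9.17-fold and 6.72-fold lower. This was the largest fall among the members at each of these times. The 96 h arrays were also the lowest of the cultured ones, but the fall from 48 h (-0.51 (SE 0.11)) was lost without 96 h array 1 (adjusted p up to 0.101) and the rise from 96 h to 144 h (0.45 (SE 0.11)) without any one of the 96 h arrays (adjusted p up to 0.189). HSPH1 is the HSP110 that releases ADP from HSP70 and also rises after heat. It read 9.78 and 9.63 at 0 h, 8.50 and 8.64 at 48 h, 8.47 and 8.49 at 96 h and 8.13 and 8.14 at 144 h. The 0 h arrays were highest and the 144 h arrays lowest, with no overlap between 0 h and any later time. It fell by 1.13 (SE 0.11, adjusted p = 0.000165), 1.22 (SE 0.11, adjusted p = 5.83e-05) and 1.57 (SE 0.11, adjusted p = 2.05e-05) at the 3 times. DNAJA4 is a type A J-protein. It read 6.10 and 6.22 at 0 h, 4.94 and 5.29 at 48 h, 5.15 and 4.76 at 96 h and 4.78 and 4.87 at 144 h. It too was lower on every cultured array, by -1.04 (SE 0.17, adjusted p = 0.00223), -1.21 (SE 0.17, adjusted p = 0.000591) and -1.34 (SE 0.17, adjusted p = 0.000479).

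Other exchange factors and J-proteins came back at some time or fell late. HSPA4L is a relative of HSPH1. It read 8.72 and 8.80 at 0 h, 7.76 and 7.84 at 48 h, 8.41 and 8.51 at 96 h and 8.06 and 7.55 at 144 h. Its 96 h arrays lay between those of 0 h and those of the other times. It fell by 0.96 (SE 0.17, adjusted p = 0.00326) at 48 h and 0.96 (SE 0.17, adjusted p = 0.00287) at 144 h, while the 96 h difference was -0.30 (SE 0.17, adjusted p = 0.197). BAG3 is an exchange factor that links HSP70 and HSPB8 to autophagy. It read 7.46 and 7.60 at 0 h, 6.54 and 6.61 at 48 h, 6.80 and 6.79 at 96 h and 7.38 and 7.34 at 144 h. It was lowest at 48 h and stood just under its 0 h values at 144 h. It fell by 0.95 (SE 0.11, adjusted p = 0.000326) at 48 h and 0.74 (SE 0.11, adjusted p = 0.000755) at 96 h, the 144 h difference was -0.17 (SE 0.11, adjusted p = 0.302), and it rose by 0.79 (SE 0.11, adjusted p = 0.00354) from 48 h to 144 h. DNAJA1 is a constitutive type A J-protein. It read 9.79 and 9.82 at 0 h, 9.53 and 9.54 at 48 h, 9.62 and 9.54 at 96 h and 9.07 and 9.07 at 144 h. Its 0 h arrays lay above all others and its 144 h arrays below all others. At 144 h it fell by 0.74 (SE 0.10, adjusted p = 0.000803), against differences of -0.27 (SE 0.10, adjusted p = 0.0814) at 48 h and -0.23 (SE 0.10, adjusted p = 0.113) at 96 h. DNAJC27 is a small GTPase with a J domain. It read 5.00 and 4.82 at 0 h, 4.70 and 4.48 at 48 h, 4.42 and 4.32 at 96 h and 4.22 and 4.07 at 144 h. It was lower at 96 h (-0.54 (SE 0.13)) and at 144 h (-0.77 (SE 0.13, adjusted p = 0.00248)), and the 96 h call was lost without 0 h array 1 or 96 h array 2 (adjusted p up to 0.0810). BAG6, which guards tail-anchored proteins on their way to the ER, was lower at 96 h alone (-0.57 (SE 0.19, adjusted p = 0.0434)). This call was lost without any one of the 0, 48 and 96 h arrays (adjusted p up to 0.228).

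HSPA8, the constitutive HSP70 that these partners serve, did not pass the test in any of the 6 comparisons. It read 11.57 and 11.53 at 0 h, 11.57 and 11.54 at 48 h, 11.28 and 11.30 at 96 h and 11.48 and 11.43 at 144 h. The 0 h and 48 h arrays lay together and the 96 h arrays a little lower, with differences from 0 h of 0.00 (SE 0.10), -0.26 (SE 0.10, adjusted p = 0.0725) and -0.10 (SE 0.10). A 2nd feature of HSPA8 was not called against 0 h either, with differences of -0.03, 0.15 and -0.21. The inducible HSPA1A and HSPA1B were not among the named features and were not analysed here.

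Other cytosolic HSP70 proteins and partners were higher in culture. Of the 24 cytosolic HSPA, HSPH, BAG and DNAJ members, 6 were called higher and 5 lower at 48 h, 9 and 6 at 96 h, and 5 and 6 at 144 h. HSPA14 is the HSP70-like protein that sits on ribosomes. It read 5.64 and 5.42 at 0 h, 6.38 and 6.61 at 48 h, 6.71 and 6.86 at 96 h and 6.16 and 6.72 at 144 h. Every cultured array was above both 0 h arrays. It rose by 0.96 (SE 0.19, adjusted p = 0.00625), 1.25 (SE 0.19, adjusted p = 0.000973) and 0.91 (SE 0.19, adjusted p = 0.00716), and the 48 h call was lost without 0 h array 2 (adjusted p up to 0.0503) and the 144 h call without 0 h array 2 (adjusted p up to 0.0562). BAG1 is an exchange factor that also binds BCL2. It read 6.54 and 6.97 at 0 h, 7.54 and 7.51 at 48 h, 7.59 and 7.85 at 96 h and 7.64 and 7.42 at 144 h. Its 0 h arrays differed by 0.43 yet both were under all others. It rose by 0.77 (SE 0.17, adjusted p = 0.0101), 0.97 (SE 0.17, adjusted p = 0.00209) and 0.78 (SE 0.17, adjusted p = 0.00877), where the 48 h call was lost without 0 h array 1 or 48 h array 1 (adjusted p up to 0.0653) and the 144 h call without 0 h array 1 (adjusted p up to 0.0590). DNAJB4, a close relative of DNAJB1, moved the other way from it and read 6.04 and 6.16 at 0 h, 6.63 and 6.50 at 48 h, 7.34 and 7.47 at 96 h and 7.61 and 7.25 at 144 h. The 0 h arrays were lowest, the 48 h arrays next, and the 96 h and 144 h arrays overlapped. It rose by 1.30 (SE 0.15, adjusted p = 0.000169) at 96 h and 1.33 (SE 0.15, adjusted p = 0.000223) at 144 h, and a smaller rise at 48 h (0.47 (SE 0.15)) was lost without any one of the 0, 48 and 96 h arrays (adjusted p up to 0.194). DNAJC13 acts on endosomes. It read 6.91 and 7.03 at 0 h, 7.57 and 7.68 at 48 h, 8.05 and 8.09 at 96 h and 7.98 and 7.72 at 144 h. It rose by 0.66 (SE 0.13, adjusted p = 0.00511), 1.10 (SE 0.13, adjusted p = 0.000191) and 0.88 (SE 0.13, adjusted p = 0.000945). DNAJC6 is the auxilin that strips clathrin from vesicles. It read 4.38 and 4.26 at 0 h, 5.77 and 5.82 at 48 h, 4.95 and 5.06 at 96 h and 5.38 and 5.16 at 144 h. It was highest at 48 h, where it rose by 1.48 (SE 0.12, adjusted p = 5.98e-05), and it was 0.69 (SE 0.12) and 0.95 (SE 0.12) above 0 h at 96 h and 144 h. This was the largest rise at 48 h among members above the lower quartile at 0 h, and the fall from 48 h to 96 h was -0.79 (SE 0.12, adjusted p = 0.00199).

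HSPB8 started from the floor of the array and rose at every time. This small heat shock protein, which works with BAG3, read 3.10 and 3.09 at 0 h, 3.99 and 4.29 at 48 h, 6.59 and 6.64 at 96 h and 5.04 and 5.37 at 144 h. Both 0 h arrays were under their lower quartiles (3.23 and 3.25), so only a lower bound of each rise from 0 h is given, against the mean of those quartiles. The 96 h arrays were the highest, followed by 144 h and 48 h, with no overlap between any pair of times. It was at least 1.86-fold higher (adjusted p = 0.00118) at 48 h, at least 10.4-fold higher (adjusted p = 1.12e-06) at 96 h and at least 3.91-fold higher (adjusted p = 1.9e-05) at 144 h. On the log2 scale the bounds at 96 h and 144 h, 3.38 and 1.97, were above the rises of all other called members, of which the largest were 1.90 and 1.46. It fell by 1.41 (SE 0.15, adjusted p = 0.000628) from 96 h to 144 h. BAG3, its partner, was lower than at 0 h at 48 h and 96 h. HSPB6 is a small heat shock protein abundant in smooth muscle. It read 7.22 and 7.63 at 0 h, 6.49 and 6.60 at 48 h, 7.65 and 7.57 at 96 h and 9.02 and 8.24 at 144 h. It was lowest at 48 h and highest at 144 h, where the 2 arrays were 0.79 apart. It rose by 2.08 (SE 0.25, adjusted p = 0.00195) from 48 h to 144 h. Against 0 h it was lower at 48 h (-0.88 (SE 0.25, adjusted p = 0.0289)) and higher at 144 h (1.21 (SE 0.25, adjusted p = 0.00625)), calls that were lost without any one of the 48 and 96 h arrays or 0 h array 2 (adjusted p up to 0.174) and without 0 h array 1 (adjusted p up to 0.0524). Of the smooth muscle and stroma markers, ACTA2 went from a mean of 7.82 to 10.67, 11.77 and 11.65 over the same times, and its part in the HSPB6 values was not tested. HSPB1 is the classic HSP27. It read 11.02 and 10.99 at 0 h, 11.35 and 11.27 at 48 h, 11.02 and 11.16 at 96 h and 11.24 and 11.52 at 144 h and was not called, with a 144 h difference of 0.38 (SE 0.13, adjusted p = 0.0573). HSPBAP1 is a protein that binds HSPB1. It read 4.40 and 4.29 at 0 h, 5.45 and 5.53 at 48 h, 5.94 and 5.86 at 96 h and 5.81 and 5.58 at 144 h. It stood above 0 h on every cultured array and rose by 1.15 (SE 0.12, adjusted p = 0.000242), 1.56 (SE 0.12, adjusted p = 2.51e-05) and 1.35 (SE 0.12, adjusted p = 7.5e-05). HSPB9, a testis form, was not called at any time and stayed between 4.10 and 4.32.

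**Figure D3:**
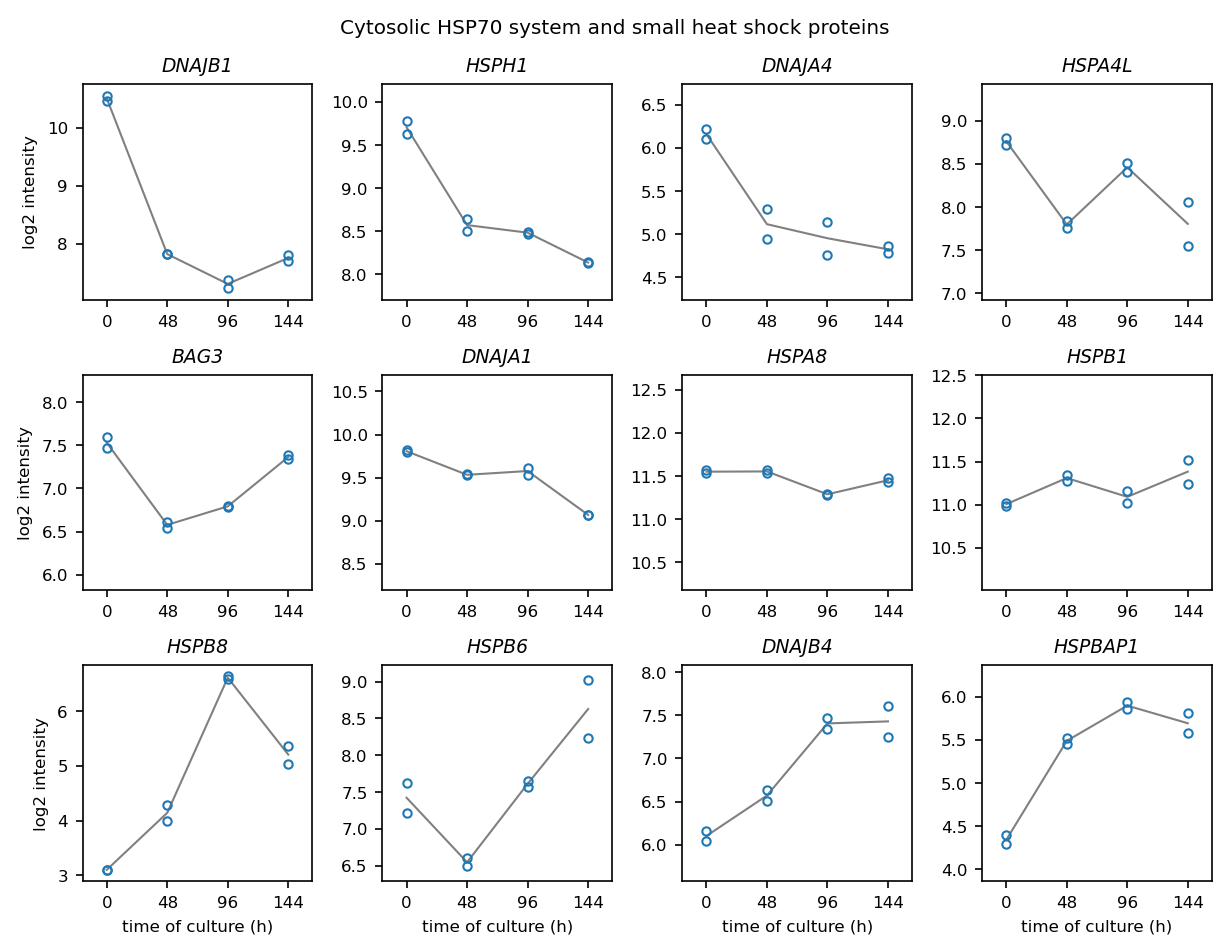
Log2 intensity of 12 cytosolic members by time of culture, with a circle for each array and a line through the means of the 2 arrays; the vertical scale spans at least 2.5 units in every panel. DNAJB1, HSPH1 and DNAJA4 drop from 0 h to 48 h and stay low, HSPA8 and HSPB1 stay nearly level, and HSPB8 climbs to 6.59 and 6.64 at 96 h.

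A set of members peaked at 96 h and came back near the 0 h level by 144 h. DNAJC21 is a J-protein of ribosome assembly. It read 5.85 and 6.07 at 0 h, 6.55 and 6.48 at 48 h, 7.77 and 7.81 at 96 h and 6.47 and 6.07 at 144 h. The 96 h arrays stood more than 1 unit above all others. It rose by 1.82 (SE 0.15, adjusted p = 3.73e-05) over 0 h, fell by 1.52 (SE 0.15, adjusted p = 0.000526) from 96 h to 144 h, and ended at 0.31 (SE 0.15, adjusted p = 0.182) against 0 h. Its smaller rise at 48 h (0.55 (SE 0.15)) was lost without any one of the 0, 48 and 96 h arrays (adjusted p up to 0.159). DNAJA2 is a constitutive type A J-protein. It read 7.995 and 8.02 at 0 h, 8.27 and 8.47 at 48 h, 9.12 and 8.99 at 96 h and 8.33 and 7.95 at 144 h. It rose by 1.05 (SE 0.15, adjusted p = 0.000690) at 96 h and fell by 0.92 (SE 0.15, adjusted p = 0.00407) after it. HSPA4 is the HSP110 that is not heat-induced. It read 9.22 and 9.39 at 0 h, 9.56 and 9.64 at 48 h, 10.23 and 10.22 at 96 h and 9.67 and 9.39 at 144 h. It rose by 0.92 (SE 0.13, adjusted p = 0.000692) at 96 h, and its fall to 144 h (-0.69 (SE 0.13)) was called but lost without any one of the 96 h arrays (adjusted p up to 0.0664). HSPH1, an exchange factor of the same family, was lower than at 0 h at that time. DNAJC7, which binds HSP70 and HSP90 through repeats, was called at 96 h alone against 0 h (0.50 (SE 0.11, adjusted p = 0.00738)). This was lost without 0 h array 1 or 96 h array 2 (adjusted p up to 0.0672).

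The cytosolic chaperonin TRiC, which folds actin and tubulin, is a ring of 8 different subunits, of which CCT2, CCT3, CCT4, CCT6A and CCT7 were measured here. They did not move as one. CCT2 read 9.26 and 9.20 at 0 h, 9.37 and 9.49 at 48 h, 10.48 and 10.48 at 96 h and 9.40 and 9.22 at 144 h. Its 96 h arrays were more than 0.9 above all others, a rise of 1.25 (SE 0.11, adjusted p = 5.61e-05) over 0 h, 2.38-fold, that was followed by a fall of 1.17 (SE 0.11, adjusted p = 0.000439). CCT6A read 7.37 and 7.71 at 0 h, 8.59 and 8.38 at 48 h, 9.11 and 9.02 at 96 h and 8.52 and 8.21 at 144 h. It was already above 0 h at 48 h (0.95 (SE 0.16, adjusted p = 0.00310)), was highest at 96 h (1.53 (SE 0.16, adjusted p = 0.000130)) and was still above 0 h at 144 h (0.82 (SE 0.16, adjusted p = 0.00529)). A 2nd feature of CCT6A gave 0.56, 1.45 and 0.43, all called higher. CCT3 read from 8.42 to 8.83 on the arrays other than 96 h array 2, which was the highest. Its rise at 96 h of 0.46 (SE 0.13, adjusted p = 0.0237) was lost without any one of the 0 and 96 h arrays (adjusted p up to 0.166). CCT4 read 8.65 and 8.75 at 0 h, 9.06 and 9.06 at 48 h, 8.67 and 8.72 at 96 h and 9.12 and 8.93 at 144 h, with its 96 h arrays beside those of 0 h. Its call at 48 h (0.36 (SE 0.11, adjusted p = 0.0448)) was lost without any one of the 0, 48 and 96 h arrays (adjusted p up to 0.187). CCT7 read 8.76 and 8.95 at 0 h, 9.07 and 9.01 at 48 h, 9.02 and 8.94 at 96 h and 9.14 and 8.86 at 144 h and was not called at any time. TCP1, the subunit that lies outside the symbol rule, was 0.68 (SE 0.14, adjusted p = 0.00463) at 96 h.

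HSF1 itself moved in both directions. The heat shock transcription factor read 6.71 and 6.83 at 0 h, 5.95 and 6.27 at 48 h, 7.52 and 7.23 at 96 h and 6.27 and 6.76 at 144 h. It was lowest at 48 h and highest at 96 h, with the 144 h arrays spread over 0.49. The rise from 48 h to 96 h was 1.26 (SE 0.19, adjusted p = 0.00205). Against 0 h the 48 h value was -0.66 (SE 0.19, adjusted p = 0.0347) and the 96 h value 0.60 (SE 0.19, adjusted p = 0.0384), both called, but the first was lost without any one of the 0 and 96 h arrays or 48 h array 1 (adjusted p up to 0.197) and the other without any one of the 0 and 96 h arrays (adjusted p up to 0.225). At 144 h the difference was -0.26 (SE 0.19, adjusted p = 0.381).

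In mitochondria the partners of one chamber went opposite ways at 96 h. HSPD1 (HSP60) forms the folding barrel and HSPE1 (HSP10) its lid. Their genes are neighbours, with 0 protein-coding genes between them in RefSeq Sscrofa11.1, and no other members are adjacent in this way. HSPD1 read 8.60 and 8.81 at 0 h, 8.18 and 8.33 at 48 h, 9.34 and 9.40 at 96 h and 8.34 and 7.99 at 144 h. Its 96 h arrays were above all others, and its 48 h and 144 h arrays were below those of 0 h. It was 0.66 (SE 0.15, adjusted p = 0.00735) at 96 h and -0.54 (SE 0.15, adjusted p = 0.0246) at 144 h against 0 h, calls lost without 0 h array 1 or 96 h array 2 (adjusted p up to 0.0567) and without any one of the 96 h arrays, 0 h array 2 or 144 h array 2 (adjusted p up to 0.147). The rise from 48 h to 96 h (1.12 (SE 0.15, adjusted p = 0.00101)) and the fall from 96 h to 144 h (-1.21 (SE 0.15, adjusted p = 0.00117)) were kept without any one array. HSPE1 read 8.69 and 8.75 at 0 h, 8.36 and 8.31 at 48 h, 7.76 and 7.76 at 96 h and 8.04 and 7.79 at 144 h. It was highest at 0 h and lowest at 96 h and 144 h, and it fell by 0.96 (SE 0.12, adjusted p = 0.000294) and 0.80 (SE 0.12, adjusted p = 0.00116). A fall at 48 h (-0.39 (SE 0.12)) was lost without any one of the 0, 48 and 96 h arrays (adjusted p up to 0.164).

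Of the other mitochondrial members, DNAJC11 was higher and DNAJC15 and FKBP8 lower at 96 h than at 0 h. DNAJC11 is an outer membrane protein that helps shape the cristae. It read 5.62 and 5.59 at 0 h, 5.31 and 5.34 at 48 h, 6.22 and 6.49 at 96 h and 5.46 and 5.25 at 144 h. It peaked at 96 h, 0.75 (SE 0.13, adjusted p = 0.00216) above 0 h, and fell by 1.00 (SE 0.13, adjusted p = 0.00159) to 144 h. DNAJC15, a J-protein of the inner membrane, had its lowest arrays at 96 h and read 6.92 and 7.14 at 0 h, 6.55 and 6.43 at 48 h, 5.37 and 5.89 at 96 h and 6.76 and 6.59 at 144 h. It fell by 1.403 (SE 0.18, adjusted p = 0.000370) at 96 h and rose by 1.05 (SE 0.18, adjusted p = 0.00503) after it. FKBP8 is an outer membrane anchor for BCL2. It read 9.21 and 9.34 at 0 h, 8.75 and 8.91 at 48 h, 8.55 and 8.65 at 96 h and 9.21 and 9.83 at 144 h. It dipped at 96 h (-0.67 (SE 0.19, adjusted p = 0.0233)) and was higher at 144 h than at 96 h (0.92 (SE 0.19, adjusted p = 0.0119)), but both calls were lost, without any one of the 0 and 96 h arrays (adjusted p up to 0.122) and without any one of the 96 h arrays (adjusted p up to 0.0901). DNAJC19 is a part of the protein import motor. It read 7.42 and 7.36 at 0 h, 8.02 and 7.81 at 48 h, 7.58 and 7.55 at 96 h and 7.58 and 7.40 at 144 h. It was higher at 48 h (0.53 (SE 0.12, adjusted p = 0.0126)). This call was lost without 0 h array 2 or 48 h array 1 (adjusted p up to 0.0873).

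**Figure D4:**
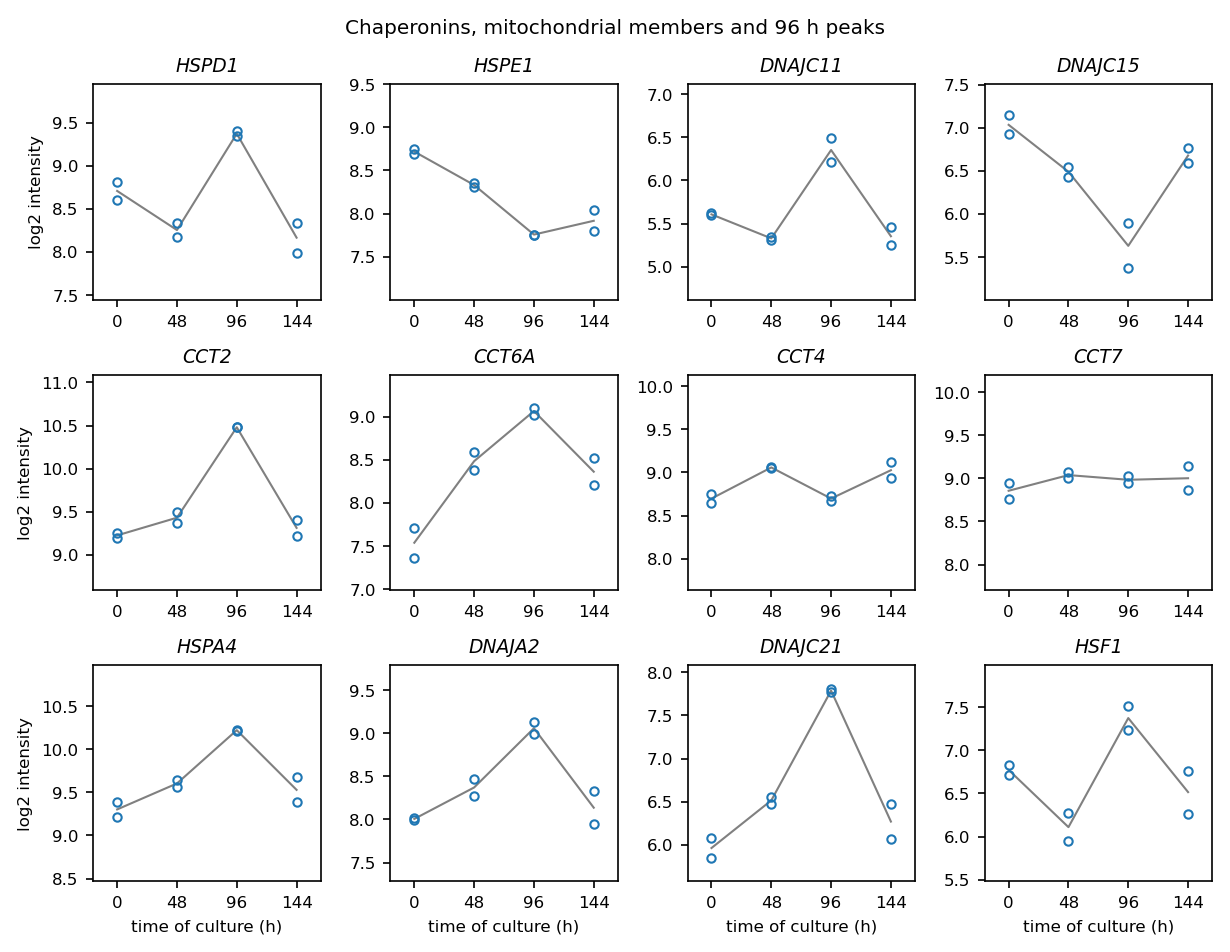
Log2 intensity of 12 chaperonin, mitochondrial and other members by time of culture, with a circle for each array and a line through the means of the 2 arrays; the vertical scale spans at least 2.5 units in every panel. HSPD1, DNAJC11, CCT2, HSPA4, DNAJA2, DNAJC21 and HSF1 have their highest mean at 96 h, while HSPE1, at 7.76 on both arrays, and DNAJC15 have their lowest there.

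The ER members also divided, with HSPA5, PDIA6 and DNAJC16 lower than at 0 h at each time and DNAJB9, DNAJB11, FKBP7, FKBP11 and FKBP14 higher at each time. At 48 h, 5 of the 17 were higher and 3 lower, at 96 h 9 and 5, and at 144 h 5 and 4. HSPA5 (BiP) is the HSP70 of the ER. It read 11.41 and 11.28 at 0 h, 10.92 and 10.93 at 48 h, 10.93 and 11.01 at 96 h and 10.46 and 10.63 at 144 h. Both 0 h arrays were the highest and both 144 h arrays the lowest. It fell by 0.80 (SE 0.11, adjusted p = 0.000973) at 144 h. The calls at 48 h (-0.42 (SE 0.11, adjusted p = 0.0262)) and at 96 h (-0.37 (SE 0.11, adjusted p = 0.0308)) were lost without any one of the 0, 48 and 96 h arrays (adjusted p up to 0.137) and without any one of the 0 and 96 h arrays (adjusted p up to 0.177). Its partner DNAJB11 (ERdj3) binds chains as they enter the ER. It read 7.11 and 7.32 at 0 h, 8.56 and 8.51 at 48 h, 8.10 and 8.30 at 96 h and 7.98 and 7.94 at 144 h. It was lowest at 0 h and highest at 48 h, and it rose by 1.32 (SE 0.13, adjusted p = 0.000129), 0.98 (SE 0.13, adjusted p = 0.000354) and 0.74 (SE 0.13, adjusted p = 0.00234). DNAJB9 (ERdj4) holds back the stress sensor IRE1 and aids ER-associated degradation. It read 6.72 and 6.59 at 0 h, 7.68 and 7.60 at 48 h, 7.70 and 7.78 at 96 h and 7.37 and 7.05 at 144 h. All cultured arrays were above 0 h, and it rose by 0.98 (SE 0.13, adjusted p = 0.000927), 1.08 (SE 0.13, adjusted p = 0.000312) and 0.56 (SE 0.13, adjusted p = 0.0142), the last of these lost without 0 h array 2 (adjusted p up to 0.0900). DNAJC10 (ERdj5) is a reductase of wrong disulfides. It read 9.06 and 8.86 at 0 h, 9.14 and 8.98 at 48 h, 9.84 and 9.87 at 96 h and 9.25 and 8.92 at 144 h. It rose at 96 h by 0.89 (SE 0.15, adjusted p = 0.00142) and was 0.12 (SE 0.15, adjusted p = 0.593) from 0 h at 144 h.

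Among the disulfide isomerases, PDIA6 fell, PDIA3 was higher at 1 time and the others were not steadily called. PDIA6 (P5) binds HSPA5. It read 10.02 and 10.03 at 0 h, 9.65 and 9.67 at 48 h, 9.48 and 9.47 at 96 h and 9.44 and 9.51 at 144 h. Every cultured array was below both 0 h arrays, and it fell by 0.55 (SE 0.10, adjusted p = 0.00282) at 96 h and 0.55 (SE 0.10, adjusted p = 0.00388) at 144 h. The call at 48 h (-0.36 (SE 0.10)) was lost without any one of the 0, 48 and 96 h arrays (adjusted p up to 0.117). PDIA3 (ERp57) folds glycoproteins with calnexin. It read 11.17 and 11.25 at 0 h, 11.45 and 11.37 at 48 h, 11.61 and 11.59 at 96 h and 11.61 and 11.47 at 144 h. It was higher at 96 h (0.39 (SE 0.11, adjusted p = 0.0217)). This call was lost without any one of the 0 and 96 h arrays (adjusted p up to 0.120), and at 144 h the difference was 0.33 (SE 0.11, adjusted p = 0.0512). PDIA4 (ERp72) read 9.79 and 9.88 at 0 h, 9.76 and 9.72 at 48 h, 9.50 and 9.42 at 96 h and 9.30 and 9.72 at 144 h and was not called, with a 96 h difference of -0.37 (SE 0.15, adjusted p = 0.0824). PDIA5 was called at 96 h alone (0.49 (SE 0.15, adjusted p = 0.0321)), which was lost without any one of the 96 h arrays or 0 h array 1 (adjusted p up to 0.197), and PDIA2, a pancreas form, was not called at any time.

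The prolyl isomerases of the ER rose with culture, except FKBP10. FKBP7 read 5.79 and 5.93 at 0 h, 7.15 and 7.25 at 48 h, 7.13 and 7.17 at 96 h and 7.35 and 7.07 at 144 h. All cultured arrays were at least 1.1 above 0 h, with rises of 1.34 (SE 0.13, adjusted p = 0.000143), 1.29 (SE 0.13, adjusted p = 9.58e-05) and 1.35 (SE 0.13, adjusted p = 0.000104). FKBP11 is an isomerase of secretory cells. It read 5.71 and 5.87 at 0 h, 6.37 and 6.56 at 48 h, 7.65 and 7.74 at 96 h and 6.59 and 6.66 at 144 h. It peaked at 96 h, and it rose by 0.67 (SE 0.12, adjusted p = 0.00382), 1.90 (SE 0.12, adjusted p = 8.23e-06) and 0.83 (SE 0.12, adjusted p = 0.00106) over 0 h and fell by 1.07 (SE 0.12, adjusted p = 0.000814) from 96 h to 144 h. FKBP14 acts on collagen. It read 6.61 and 6.78 at 0 h, 7.45 and 7.57 at 48 h, 7.73 and 7.96 at 96 h and 8.11 and 7.50 at 144 h. It rose by 1.16 (SE 0.20, adjusted p = 0.00186) at 96 h and 1.11 (SE 0.20, adjusted p = 0.00317) at 144 h, and the 48 h call (0.82 (SE 0.20)) was lost without any one of the 0 and 48 h arrays (adjusted p up to 0.0942). FKBP10 (FKBP65) is also a collagen folding enzyme. It read 10.05 and 10.14 at 0 h, 10.15 and 10.13 at 48 h, 9.71 and 9.72 at 96 h and 10.05 and 10.12 at 144 h. It dipped at 96 h (-0.38 (SE 0.10, adjusted p = 0.0187)). This call was lost without any one of the 96 h arrays or 0 h array 2 (adjusted p up to 0.111), and at 144 h it was -0.01 (SE 0.10) from 0 h. The collagen markers COL1A1 and COL3A1, in the stroma list, went from means of 6.10 and 4.18 at 0 h to 12.07 and 8.80 at 144 h, and their part in the FKBP values was not tested.

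The remaining ER members were J-proteins of its membrane. DNAJC16 read 7.42 and 7.47 at 0 h, 7.04 and 7.06 at 48 h, 6.83 and 6.94 at 96 h and 7.02 and 6.99 at 144 h. It fell by 0.55 (SE 0.10, adjusted p = 0.00307) at 96 h and 0.44 (SE 0.10, adjusted p = 0.0134) at 144 h, the latter call lost without any one of the 0 h arrays (adjusted p up to 0.0734). Its call at 48 h (-0.39 (SE 0.10)) was lost without any one of the 0, 48 and 96 h arrays (adjusted p up to 0.113). DNAJC14 was lower at 96 h (-0.53 (SE 0.11, adjusted p = 0.00498)), which was lost without 96 h array 1 (adjusted p up to 0.0564), and DNAJB14 was higher there (0.56 (SE 0.18, adjusted p = 0.0327)), which was lost without any one of the 0 and 96 h arrays (adjusted p up to 0.140). DNAJB12, a partner of DNAJB14, was lower at 144 h (-0.38 (SE 0.12, adjusted p = 0.0435)), which was lost without any one of the 0, 48 and 96 h arrays or 144 h array 2 (adjusted p up to 0.200).

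**Figure D5:**
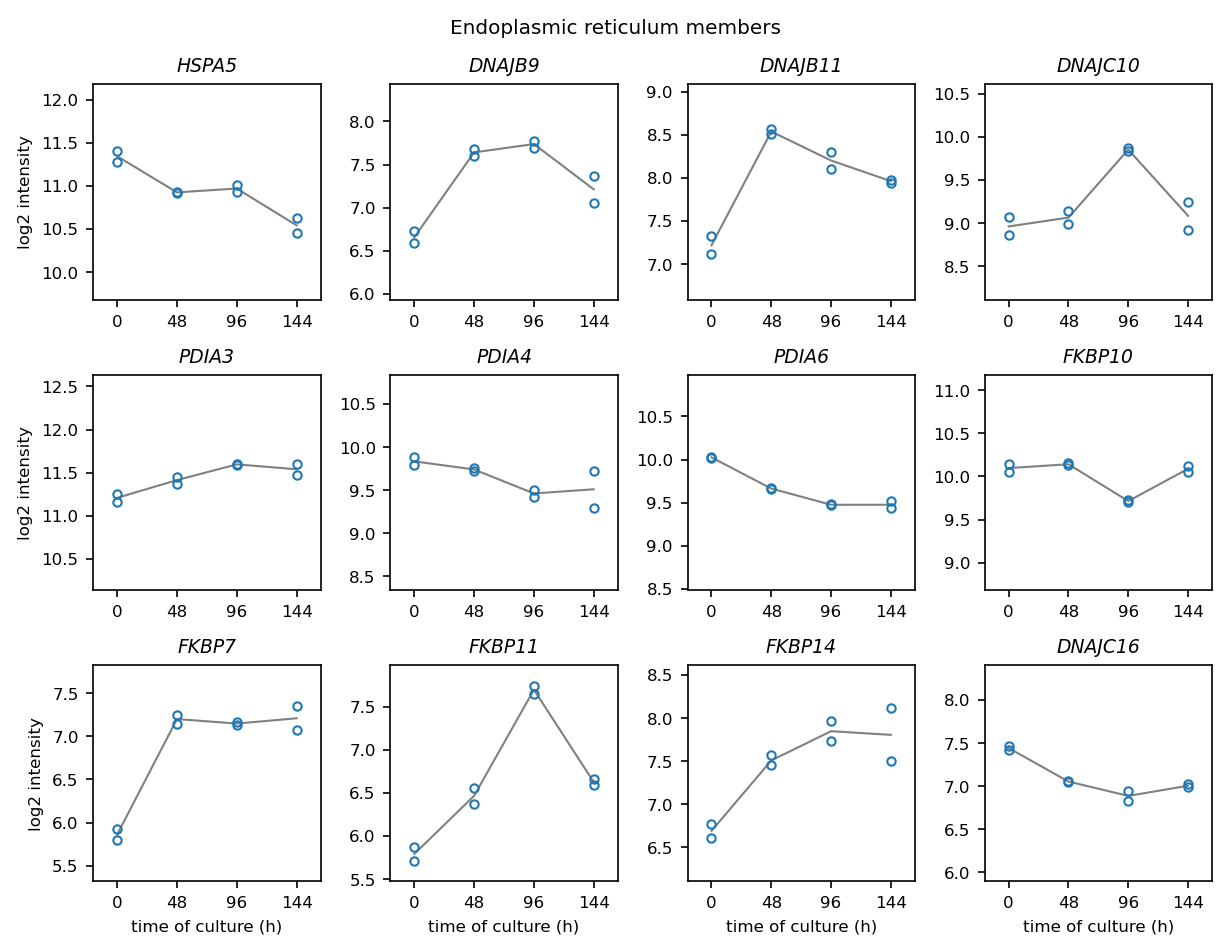
Log2 intensity of 12 ER members by time of culture, with a circle for each array and a line through the means of the 2 arrays; the vertical scale spans at least 2.5 units in every panel. HSPA5, PDIA6 and DNAJC16 decline, DNAJB9, DNAJB11, FKBP7 and FKBP14 rise by 48 h and stay above 0 h, and FKBP11 and DNAJC10 peak at 96 h.

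Of the cytosolic and nuclear FKBP proteins, FKBP1A (FKBP12) is the target of rapamycin and tacrolimus. It read 8.48 and 8.55 at 0 h, 9.40 and 9.36 at 48 h, 9.35 and 9.43 at 96 h and 9.91 and 10.05 at 144 h. It was lowest at 0 h and highest at 144 h, with rises of 0.87 (SE 0.11, adjusted p = 0.000594), 0.87 (SE 0.11, adjusted p = 0.000321) and 1.46 (SE 0.11, adjusted p = 2.57e-05). Its 2nd feature gave 1.05, 0.74 and 1.70, all called higher. FKBP3 (FKBP25) is a nuclear isomerase. It read 7.70 and 7.69 at 0 h, 8.67 and 8.47 at 48 h, 8.45 and 8.38 at 96 h and 9.03 and 8.42 at 144 h. It stood above 0 h on every cultured array and rose by 1.03 (SE 0.19, adjusted p = 0.00363) at 144 h, while the calls at 48 h (0.87 (SE 0.19)) and 96 h (0.72 (SE 0.19)) were lost without 0 h array 2 or 48 h array 1 (adjusted p up to 0.0666) and without any one of the 0 and 96 h arrays (adjusted p up to 0.0879). FKBP4 (FKBP52), the co-chaperone of progesterone and androgen receptors, had features that disagreed. The brighter feature read 7.85 and 7.86 at 0 h, 8.47 and 8.12 at 48 h, 7.96 and 8.07 at 96 h and 8.46 and 8.25 at 144 h, with differences of 0.45 (SE 0.15, adjusted p = 0.0529), 0.16 (SE 0.15, adjusted p = 0.430) and 0.50 (SE 0.15, adjusted p = 0.0316), the last lost without any one of the 0 and 96 h arrays or 144 h array 1 (adjusted p up to 0.118). The other feature, with a mean of 7.62, was called lower at each time, by -0.73, -1.43 and -0.92. No direction is therefore given for FKBP4. FKBP6 is a germ cell protein. It read 3.80 and 3.76 at 0 h, 3.25 and 3.05 at 48 h, 3.10 and 3.20 at 96 h and 3.005 and 3.22 at 144 h. It was dim, stood under the lower quartile on 3 of 8 arrays and fell by 0.63 (SE 0.13, adjusted p = 0.00657), 0.63 (SE 0.13, adjusted p = 0.00404) and 0.67 (SE 0.13, adjusted p = 0.00415). Of the 9 measured oocyte markers, 7 were called lower and 0 higher at 48 h, and FIGLA and NOBOX were not called. ZP2, ZP4 and BMP15, which fell most, went from means of 5.26, 6.16 and 5.48 at 0 h to 3.23, 3.26 and 3.25 at 48 h. The part of these markers in the FKBP6 fall was not tested.

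The other members outside the 3 compartments included DNAJC24 (DPH4), an enzyme of diphthamide synthesis, which read 6.32 and 6.38 at 0 h, 7.42 and 7.40 at 48 h, 7.31 and 7.43 at 96 h and 7.72 and 7.20 at 144 h. All cultured arrays were above 0 h, by 1.06 (SE 0.17, adjusted p = 0.00197), 1.02 (SE 0.17, adjusted p = 0.00142) and 1.11 (SE 0.17, adjusted p = 0.00131). DNAJC17 is a nuclear J-protein linked to splicing. It read 6.05 and 6.16 at 0 h, 5.61 and 5.50 at 48 h, 4.84 and 4.84 at 96 h and 5.26 and 5.64 at 144 h. It was lowest at 96 h, where it fell by 1.27 (SE 0.14, adjusted p = 0.000187). Its calls at 48 h (-0.55 (SE 0.14)) and 144 h (-0.66 (SE 0.14)) were lost without any one of the 0 and 48 h arrays (adjusted p up to 0.115) and without 0 h array 2 (adjusted p up to 0.0609). CCT8L2, a chaperonin-like gene, and HSF5, a factor of the male germ line, were not called at any time. The same held for BAG2, an exchange factor that slows protein degradation, for DNAJC12, and for DNAJB7, DNAJB8, DNAJB13 and DNAJC5B, which are known mainly from testis. Of these, DNAJC5B was under the lower quartile on all 8 arrays.

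Between later times most calls involved 96 h, among the members as among all named genes. From 48 h to 96 h, 16 were higher and 7 lower, 34.8% in all, against 31.2% of named genes (14.3% higher and 16.9% lower) and 41.8% of those past the brightness filter. From 96 h to 144 h, 9 were higher and 17 lower, 39.4% in all, against 23.0% of named genes (13.0% higher and 10.1% lower) and 31.6% of those past the filter. From 48 h to 144 h, 5 were higher and 3 lower, 12.1% in all, against 10.5% of named genes (5.55% higher and 4.91% lower) and 14.3% of those past the filter. Of the 61 members past the filter, 37.7% were called from 48 h to 96 h, 42.6% from 96 h to 144 h and 13.1% from 48 h to 144 h. From 96 h to 144 h, 27.9% of these 61 were called lower, against 13.5% of the genes past the filter. The 5 largest such falls were DNAJC21, HSPB8, HSPD1, CCT2 and FKBP11, and the 2 largest rises DNAJC15 and HSPB6. From 48 h to 144 h the higher members were HSPB6, HSPB8, DNAJB4, BAG3 and FKBP1A, and the lower ones DNAJB11 (-0.58 (SE 0.13)), DNAJC6 (-0.53 (SE 0.12)) and DNAJA1 (-0.46 (SE 0.10)). The counts of calls around 96 h fell in fits that left 1 array at a compared time, as fewer degrees of freedom alone can bring about. Without 96 h array 1 the 9 higher and 17 lower calls from 96 h to 144 h became 1 and 7, and without 96 h array 2 they became 1 and 8. The 16 higher and 7 lower calls from 48 h to 96 h became 9 and 1 without 96 h array 1, 10 and 3 without 96 h array 2, and 9 and 2 without 48 h array 1. The 3 lower calls from 48 h to 144 h were all lost without either 48 h array or either 96 h array, 1 was left without either 0 h array, and 7 were called without 144 h array 1, while the 5 higher calls became 3 without 48 h array 2.

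Genes that work beside these members but lie outside the symbol rule were counted from lists of known partners. Of 17 HSP90 system genes, 11 were measured, and 2 were higher and 2 lower at 48 h, 4 and 1 at 96 h and 1 and 3 at 144 h. TOMM34, which links HSP70 to HSP90 on the way to mitochondria, fell by 1.12 (SE 0.13, adjusted p = 0.000475), 1.61 (SE 0.13, adjusted p = 3.5e-05) and 1.13 (SE 0.13, adjusted p = 0.000362). PPID, a cyclophilin of the receptor complexes, fell by 0.83 (SE 0.15, adjusted p = 0.00382) at 144 h. CHORDC1, an HSP90 partner that stress induces, was 0.59 (SE 0.13) at 48 h, 1.63 (SE 0.13, adjusted p = 2.58e-05) at 96 h and 0.17 (SE 0.13, adjusted p = 0.391) at 144 h, with the 48 h call lost without 0 h array 2 or 48 h array 1 (adjusted p up to 0.0563). UNC45A, a myosin chaperone, was 0.52 (SE 0.11, adjusted p = 0.00871) at 144 h, lost without 0 h array 2 (adjusted p up to 0.0630). HSP90AA1, the inducible HSP90, named after its values were seen, was -0.36 (SE 0.11, adjusted p = 0.0363) at 48 h, a call lost without any one of the 0, 48 and 96 h arrays (adjusted p up to 0.168). It was 0.70 (SE 0.11, adjusted p = 0.000925) at 96 h and -0.16 (SE 0.11, adjusted p = 0.307) at 144 h. Of 13 genes of the TCP1 and prefoldin list, 9 were measured, and 2 were higher and 1 lower at 48 h, 4 and 3 at 96 h and 2 and 2 at 144 h. TBCE, a tubulin cofactor, was 1.48 (SE 0.25, adjusted p = 0.00248) at 144 h, and TXNDC9, which modulates TRiC, was 0.96 (SE 0.14, adjusted p = 0.000988). PFDN2, a prefoldin subunit, was -1.09 (SE 0.10, adjusted p = 7.38e-05) at 96 h and -0.52 (SE 0.10, adjusted p = 0.00591) at 144 h, whereas TBCB was not called against 0 h.

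Of 31 other ER folding genes, 20 were measured, and 9 were higher and 1 lower at 48 h, 7 and 3 at 96 h and 5 and 3 at 144 h. TMX3, a membrane disulfide isomerase, rose by 1.88 (SE 0.14, adjusted p = 4.02e-05), 2.52 (SE 0.14, adjusted p = 4.38e-06) and 2.03 (SE 0.14, adjusted p = 1.84e-05). ERP27, a partner of PDIA3, was called higher at 144 h (adjusted p = 0.000174), where it read 3.76 and 4.18. Its 0 h arrays, at 2.61 and 2.57, were under their lower quartiles (3.23 and 3.25), so no size is given for this rise. HYOU1, the HSP110 of the ER, fell by 1.17 (SE 0.20, adjusted p = 0.00279) at 144 h, when HSPA5 was also lowest. ERO1A, which oxidises PDI, was 1.13 (SE 0.26, adjusted p = 0.0121) at 48 h, a call lost without either 0 h array or 48 h array 1 (adjusted p up to 0.0865). Of 20 regulators of the unfolded protein response, 16 were measured, and 5 were higher and 2 lower at 48 h, 6 and 4 at 96 h and 7 and 2 at 144 h. PPP1R15A (GADD34), which restores translation after stress, fell by 2.09 (SE 0.23, adjusted p = 0.000269), 1.50 (SE 0.23, adjusted p = 0.000956) and 1.94 (SE 0.23, adjusted p = 0.000327). EDEM1 and EDEM3, which send misfolded glycoproteins to degradation, went the other way. EDEM1 rose by 1.41 (SE 0.11, adjusted p = 3.94e-05), 1.71 (SE 0.11, adjusted p = 7.25e-06) and 1.60 (SE 0.11, adjusted p = 1.39e-05), and EDEM3 by 1.16 (SE 0.12), 1.42 (SE 0.12) and 0.86 (SE 0.12). ERN1 (IRE1), the stress sensor that DNAJB9 holds back, rose by 1.07 (SE 0.17, adjusted p = 0.00230) at 48 h. Of 17 other mitochondrial chaperones and proteases, 4 were measured, and CLPP, a matrix protease, fell by 1.19 (SE 0.11, adjusted p = 6.86e-05) at 96 h while LONP1, another, rose by 0.76 (SE 0.11, adjusted p = 0.000839), and TRAP1 and GRPEL2 were not called against 0 h. SQSTM1, an autophagy receptor in the list of crystallins and ubiquitin (2 of 5 measured), rose by 1.07 (SE 0.10, adjusted p = 0.000117), 0.82 (SE 0.10, adjusted p = 0.000285) and 0.94 (SE 0.10, adjusted p = 0.000193), and UBB, a ubiquitin gene, was -0.53 (SE 0.15, adjusted p = 0.0316) at 144 h, lost without any one of the 0 and 96 h arrays or 144 h array 2 (adjusted p up to 0.163).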

How the data were processed

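Per the submitters' processing notes, the authors used RMA (robust multi-array averaging), and the deposited values are on the log2 scale. The program behind it, with its version and options, is not given in the sources used here. RMA normalizes the arrays to each other, so a shift of most transcripts at once would be invisible. Times were read from the labels, and 0 columns were left out. Batches are not labelled, and one that ran with time cannot be told apart from it. No genome build is named, so no coordinates are given.

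Symbols came from the platform annotation held by GEO, some of them perhaps old: 11735 features had 1 symbol, 239 repeated 1 symbol, 373 held different symbols and 15211 had none. Where a gene had several features, the brightest by mean was used. The members, their compartments, the partner and marker lists and the rule for named genes were chosen with earlier results of these data known. That rule takes up to 10 called members each way against 0 h and 5 between later times, a set of well-known chaperones, and 4 genes of each partner list with the largest difference at 48 h or 144 h. HSP90AA1, TCP1, LONP1 and the marker genes named beside members fall outside it and were chosen after their values were seen, as were other members given with values.

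The model, in limma 3.58.1 under R 4.3.3 (lmFit, eBayes), had 1 mean per time over all 8 arrays, with 4 residual and 3.98 prior degrees of freedom. All 6 pairs of times were tested two-sided, and the 4 times by an F test. P-values were adjusted by Benjamini-Hochberg over 27558 features, with a threshold of 0.05. Precision is limited by 2 arrays per time, and the median SE of a difference was 0.143. The steps were tested on simulated data for 48 h against 0 h. In each of 5 runs 200 of the 27558 features were changed, and of log2 changes of 0.5, 1 and 2, 5.67%, 51.0% and 90.6% were recovered. In the real comparison 30.0% of all features were called. The adjustment depends on that share, so these recoveries do not measure how many real changes were found. With 2 arrays per time, a gene that was not called may still have changed. Alternatives were 3 scalings (quantile, cyclic loess, median), the brightness filter, which kept 18019 features, eBayes with trend and robust, a fit of the 4 arrays of each pair, and the replicate number as a block. Others were the mean of a gene's features, single-symbol features, an adjusted p below 0.01, at least 2-fold changes, and leaving out each array in turn. Leaving out both 96 h arrays was added after seeing the data.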

Additional observations from a re-analysis of the deposited data

How the results depend on the processing

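Apart from stricter thresholds, 17 of 32 member calls at 48 h, 31 of 45 at 96 h and 23 of 32 at 144 h against 0 h were kept in every alternative, as were 10 of 23 from 48 h to 96 h, 8 of 26 from 96 h to 144 h and 3 of 8 from 48 h to 144 h. Every call lost anywhere was lost in at least 1 fit without 1 array. With 1 array left out, the F test called 38 to 53 members. Higher and lower calls ranged from 12 to 23 and 6 to 17 at 48 h, 21 to 29 and 11 to 19 at 96 h, and 15 to 22 and 10 to 15 at 144 h against 0 h. They ranged from 9 to 16 and 1 to 10 from 48 h to 96 h, 1 to 11 and 7 to 18 from 96 h to 144 h, and 3 to 6 and 0 to 7 from 48 h to 144 h. With a fold of at least 2, higher and lower calls were 6 and 3 at 48 h, 14 and 5 at 96 h, 9 and 3 at 144 h, 8 and 0 from 48 h to 96 h, 2 and 5 from 96 h to 144 h, and 2 and 0 from 48 h to 144 h. At an adjusted p below 0.01, 6 were lower at 48 h, 10 were higher and 4 lower from 48 h to 96 h, 3 and 11 from 96 h to 144 h, and 0 lower from 48 h to 144 h. With only the 4 arrays compared, 4 were higher from 96 h to 144 h, and 3 were higher and 0 lower from 48 h to 144 h. Without both 96 h arrays, 8 were lower at 48 h against 0 h and 0 from 48 h to 144 h. With the mean of a gene's features, FKBP4 turned to -0.63 at 96 h and -0.21 at 144 h, since its 2 features disagree, and no other called member changed sign. Single-symbol features gave the same values. No scaling moved the median of all features by 0.1.

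Arrays of different times share replicate numbers, but the deviations of same-numbered arrays correlated at only -0.04 to 0.19, above 0.1 for 1 of 6 pairs of times and above 0 for 3, so the numbers were not taken to pair the arrays. With the replicate number as a block (pairing by number), higher and lower calls were 17 and 12 at 48 h, 29 and 16 at 96 h and 18 and 14 at 144 h against 0 h, 16 and 6 from 48 h to 96 h, 9 and 17 from 96 h to 144 h, and 6 and 3 from 48 h to 144 h.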
